A study of Mus musculus with 8 samples.

Results

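The genes described here are the inhibitors of cyclin-dependent kinases (CDKs), the proteins that hold cells back from dividing. They were chosen by symbol, 7 names from Cdkn1a to Cdkn2d, and 6 of them stood among the 12211 genes of the count table. These were the 3 CIP/KIP genes Cdkn1a, Cdkn1b and Cdkn1c and the INK4 genes Cdkn2b, Cdkn2c and Cdkn2d, and all 6 had enough counts to be tested. Cdkn2a was not analysed here. The data are RNA sequencing counts of mouse embryonic fibroblasts (MEFs), connective tissue cells grown from embryos, with 4 libraries of PUS10 KO cells (PUS10KO) and 4 of WT cells (control). PUS10 belongs to the enzymes that convert uridine in RNA to pseudouridine. Both genotypes were grown in DMEM with fetal bovine serum and penicillin-streptomycin, and no other treatment is named. The labels do not say how the knockout was made, which part of Pus10 it targets, the strain, the age of the embryos, the number of lines or clones, or whether libraries came from separate cultures. The p-values therefore rest on the spread among these 8 libraries alone, and that spread may be technical.

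CDK inhibitors act at the entry into the cell cycle. The INK4 proteins bind CDK4 and CDK6 and keep them from joining D-type cyclins, whereas the CIP/KIP proteins bind complexes of cyclins with CDKs, above all those of CDK2. Both families leave the retinoblastoma protein unphosphorylated, which keeps E2F transcription factors silent. Cdkn1a (p21) is a classical target of the tumour suppressor p53. Cdkn1b (p27) is controlled largely through protein turnover, and Cdkn1c (p57) is an imprinted gene expressed from the maternal allele. Cdkn2b (p15) is known as a target of TGF-beta, while Cdkn2c (p18) and Cdkn2d (p19) belong to the same family. Fibroblasts taken into culture are known to accumulate inhibitors of this kind as they approach senescence.

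Windows of 250 bases before to 50 bases after annotated start sites, from RefSeq (GRCm38.p6), matched 5 of the 6 genes. They are shown for the inhibitor that fell, for the 2 start sites of Cdkn1a, and for Cdkn2c and Cdkn2d, whose counts moved together across the libraries. Capitals mark 4 short motifs searched on both strands. These were the p53 core pair, CATG and CATG with any 6 bases between them, the GC box GGGCGG bound by Sp1, TATAA of the TATA box, and the Smad box CAGAC. No motif overlapped another in these windows. The p53 pair was chosen after the sequences had been read.
Cdkn1a, upstream start (chr17:29090729-29091028, plus strand): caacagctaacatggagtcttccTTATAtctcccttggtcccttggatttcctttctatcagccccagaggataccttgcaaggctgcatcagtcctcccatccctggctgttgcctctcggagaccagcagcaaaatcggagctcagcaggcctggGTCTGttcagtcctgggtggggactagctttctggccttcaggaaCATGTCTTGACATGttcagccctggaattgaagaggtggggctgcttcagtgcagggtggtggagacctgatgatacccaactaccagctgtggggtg
Cdkn1a, downstream start (chr17:29093519-29093818, plus strand): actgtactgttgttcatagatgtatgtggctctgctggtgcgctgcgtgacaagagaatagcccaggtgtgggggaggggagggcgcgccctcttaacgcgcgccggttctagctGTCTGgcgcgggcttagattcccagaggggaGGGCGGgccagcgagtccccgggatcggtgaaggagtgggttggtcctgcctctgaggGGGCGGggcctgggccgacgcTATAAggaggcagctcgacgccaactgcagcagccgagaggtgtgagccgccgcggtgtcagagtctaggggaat
Cdkn2b (chr4:89310983-89311282, minus strand): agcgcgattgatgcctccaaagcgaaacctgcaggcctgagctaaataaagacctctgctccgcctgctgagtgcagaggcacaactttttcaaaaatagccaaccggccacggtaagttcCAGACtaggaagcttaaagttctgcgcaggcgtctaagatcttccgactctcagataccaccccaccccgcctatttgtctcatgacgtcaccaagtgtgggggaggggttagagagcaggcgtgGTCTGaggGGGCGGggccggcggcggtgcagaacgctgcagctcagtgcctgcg
Cdkn2c (chr4:109666707-109667006, minus strand): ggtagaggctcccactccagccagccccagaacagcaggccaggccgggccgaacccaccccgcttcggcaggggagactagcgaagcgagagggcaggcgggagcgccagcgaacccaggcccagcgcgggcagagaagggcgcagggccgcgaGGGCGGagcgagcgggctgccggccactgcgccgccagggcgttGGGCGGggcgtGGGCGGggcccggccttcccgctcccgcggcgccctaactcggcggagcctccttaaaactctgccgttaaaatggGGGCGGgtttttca
Cdkn2d (chr9:21291160-21291459, minus strand): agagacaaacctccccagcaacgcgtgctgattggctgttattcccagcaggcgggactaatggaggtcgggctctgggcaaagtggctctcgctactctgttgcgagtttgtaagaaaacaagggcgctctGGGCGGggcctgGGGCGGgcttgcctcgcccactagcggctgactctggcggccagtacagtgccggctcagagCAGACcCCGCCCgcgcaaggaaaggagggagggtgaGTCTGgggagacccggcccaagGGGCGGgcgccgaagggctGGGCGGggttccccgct

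The upstream window of Cdkn1a held the p53 core pair, a pattern found in 0.710% of 32817 windows of this kind, and none of the other inhibitor windows held it. Of 15 other p53 targets with a window, 0 held it. The start sites of Cdkn1a lie 2.79 kb apart, and the counts do not separate transcripts from them. The downstream window of Cdkn1a had 2 GC boxes and a TATA box whose first base lies 25 bases before the start site. The window of Cdkn2b had 1 GC box and 2 Smad boxes. The windows shown for Cdkn2c and Cdkn2d had no TATA box and held 4 and 5 GC boxes. Cdkn2c has another annotated start site 1.384 kb away, whose window is not shown and had no GC box, no TATA box and 1 Smad box. A GC box was present in 35.6% of all windows, TATAA in 24.9% and CAGAC in 49.6%. These matches describe the letters only and show no binding.

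Total counts ran from 17561114 to 24563499 per PUS10KO library and from 18850689 to 23217332 per control library. Pus10 fell, with 13.8 ± 1.5997 CPM in PUS10KO and 46.1 ± 6.46 CPM in control (SD, n = 4 each; log2 fold change -1.74, SE 0.15, edgeR adjusted p = 0.000189). CPM are counts scaled by TMM to a common library size. The genotypes also differed in sex chromosome content, since counts of the Y-linked genes in PUS10KO summed to 5989 (Eif2s3y), 4579 (Uty) and 4605 (Kdm5d), against 0, 1 and 2 in control. Sex and genotype cannot be told apart in these samples. Of 10 fibroblast markers none rose and 4 fell (1 and 5 in the fit with the number as a block). Of all genes tested 13% were called, and 39% with the block. DESeq2 and limma voom each called 1 marker higher and 4 lower. Among the 6 not called, Pdgfra and Lum had log2 fold changes of 1.02 (edgeR adjusted p = 0.0605) and 0.61. Col1a1, Col3a1, Dcn and Fn1 lay between -0.59 and -0.23. Among those that fell was Thy1, a surface glycoprotein, with 2 counts in PUS10KO and 1726 in control. Vim, Pdgfrb and Col1a2 had log2 fold changes of -0.55, -0.45 and -0.77. Their calls were kept only without control 1 or control 4 (Vim), PUS10KO 1 (Pdgfrb), and PUS10KO 4 or control 2 (Col1a2), with adjusted p up to 0.0796, 0.128 and 0.12 in the other fits that left out 1 library. Of the other cell types, 1 of 7 epithelial, 2 of 6 endothelial and 3 of 7 leukocyte markers were tested, and the defining markers Epcam, Cdh1, Pecam1, Cdh5 and Ptprc were not analysed here. Krt19 fell (16.3 ± 4.22 CPM in PUS10KO and 120.0 ± 68.2 CPM in control, adjusted p = 0.00169). The endothelial markers (Kdr and Tek) summed to 1.19 to 3.12 CPM in PUS10KO and 2.52 to 4.92 CPM in control. The leukocyte markers, Cd68 and Lyz2 among them, summed to 2.51 to 6.67 CPM in PUS10KO and 4.997 to 9.05 CPM in control. None of these 5 was called, but with the library number as a replicate block Kdr and Lyz2 fell (edgeR adjusted p = 0.026 and 0.0108), and the values of Lyz2 did not overlap between the genotypes. The part of these differences in the results was not tested, and in bulk RNA fewer cells of a type and less RNA per cell cannot be told apart.

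In PUS10KO cells 2 CIP/KIP genes rose and 1 INK4 gene fell. Cdkn1a was 2.29-fold and Cdkn1c 3.84-fold higher, and Cdkn2b was 8.96-fold lower, the largest difference among the 6. Cdkn1b, Cdkn2c and Cdkn2d did not pass the test. Across all 11909 genes tested 13% were called, 5.9% higher and 7.11% lower, at an adjusted p under 0.05 (quasi-likelihood test of edgeR, Benjamini-Hochberg adjustment). For Cdkn1a, Cdkn1c and Cdkn2b the values of the 4 PUS10KO and the 4 control libraries did not overlap, as for 20.3% of all genes tested (9.7% higher and 10.6% lower in PUS10KO). Cdkn1a and Cdkn1c were above, and Cdkn2b below, the control library of the same number in all 4 numbers, as were 28.4% and 26.9% of all genes. With the number as a replicate block the same 3 inhibitors were called, where 39% of all genes were. The median log2 fold change of all genes tested was 0.0086, and those of the 3 uncalled inhibitors lay between -0.19 and -0.12.

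**Figure D1:**
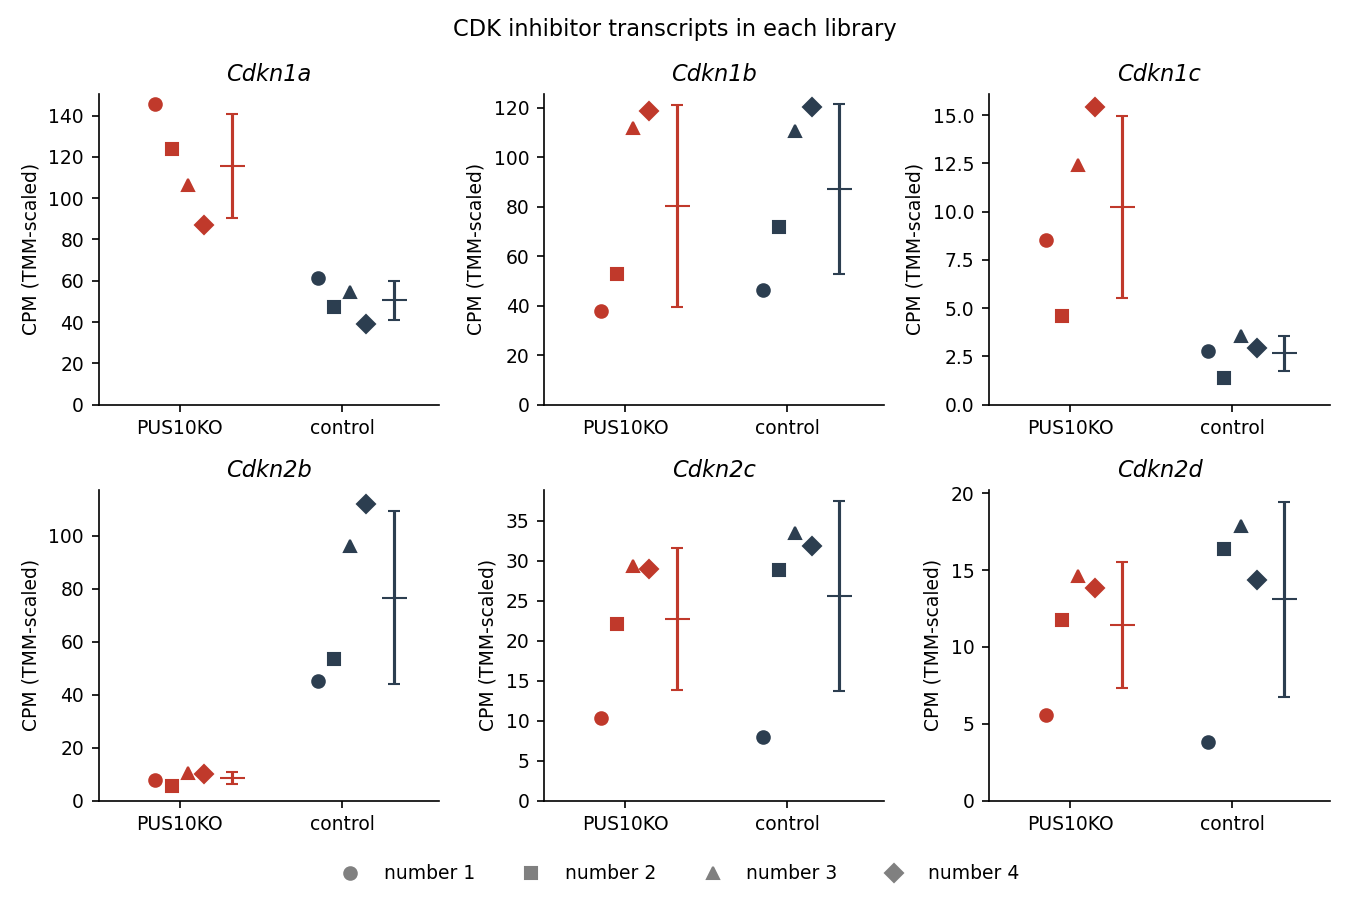
CPM (TMM-scaled, linear axes from 0) of the 6 CDK inhibitor genes in the 4 PUS10KO (red) and 4 control (dark) libraries. Marker shape gives the library number, and bars give mean ± SD. Cdkn1a and Cdkn1c lie higher and Cdkn2b lower in every PUS10KO library than in any control library, while Cdkn1b, Cdkn2c and Cdkn2d follow the library number in both genotypes.

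Cdkn1a, which encodes p21, an inhibitor of CDK2 complexes induced by DNA damage, lies on chromosome 17 (ENSMUSG00000023067.14, 29090976 to 29100727, plus strand, GRCm38). It had 145, 124, 106 and 86.8 CPM in PUS10KO libraries 1 to 4, against 61.1, 47.2, 54.6 and 39.1 CPM in control libraries 1 to 4. The lowest PUS10KO value was above the highest control value. The means were 116 ± 25.0 CPM in PUS10KO and 50.5 ± 9.48 CPM in control (SD, n = 4 each), a log2 fold change of 1.19 (SE 0.20, adjusted p = 0.00464 by edgeR's quasi-likelihood test). Within the numbers the log2 difference ran from 0.96 to 1.39, so each PUS10KO library exceeded the control library of its number. Leaving out each library in turn gave log2 fold changes from 1.07 to 1.31, and the call was kept in all 8 fits. Its chromosome had a median log2 fold change of -0.13.

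Cdkn1c, which encodes p57, lies on chromosome 7 (ENSMUSG00000037664.13, 143458339 to 143461050, minus strand). It had 8.54, 4.61, 12.4 and 15.4 CPM in PUS10KO libraries 1 to 4, against 2.77, 1.37, 3.55 and 2.92 CPM in control libraries 1 to 4. PUS10KO 2 was the lowest library of its genotype and still above every control library. The means were 10.2 ± 4.69 CPM in PUS10KO and 2.65 ± 0.922 CPM in control, a log2 fold change of 1.94 (SE 0.42, adjusted p = 0.0161 by edgeR's test). The log2 difference within numbers was 1.62, 1.75, 1.80 and 2.40. The call was kept in all 8 fits without 1 library (adjusted p up to 0.047). It was lost when both libraries of number 1, 3 or 4 were left out, with log2 fold changes of 2.04, 2.00 and 1.73 and adjusted p = 0.0612, 0.085 and 0.0806 from 3 libraries a genotype. GENCODE M21 places an antisense gene over exons of Cdkn1c and an unclassified gene of the opposite strand over exons of Cdkn1a. Because the strand setting of the counting is not given, reads of the 2 strands cannot be told apart.

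Cdkn1b encodes p27, the inhibitor tied to growth arrest on mitogen withdrawal, and lies on chromosome 6 (ENSMUSG00000003031.14, 134920401 to 134925513, plus strand). It had 38.0, 52.9, 112 and 119 CPM in PUS10KO libraries 1 to 4, against 46.5, 72.0, 111 and 120.3 CPM in control libraries 1 to 4. In both genotypes numbers 3 and 4 were high and number 1 was lowest, and the genotypes overlapped. The means were 80.4 ± 40.9 CPM in PUS10KO and 87.3 ± 34.3 CPM in control. The log2 fold change was -0.12 with a 95% interval of -1.06 to 0.82 (edgeR adjusted p = 0.895). When the differences between numbers were taken out by a replicate block, the value was -0.18 with an interval of -0.41 to 0.047 (adjusted p = 0.181).

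Cdkn2b, which encodes p15, an inhibitor of CDK4 and CDK6, lies on chromosome 4 (ENSMUSG00000073802.5, 89306299 to 89311039, minus strand). It had 7.82, 5.65, 10.6 and 10.2 CPM in PUS10KO libraries 1 to 4, against 45.0, 53.4, 96.3 and 112 CPM in control libraries 1 to 4. The highest PUS10KO value, in PUS10KO 3, was below the lowest control value, in control 1. The means were 8.56 ± 2.29 CPM in PUS10KO and 76.7 ± 32.6 CPM in control, a log2 fold change of -3.16 (SE 0.35, adjusted p = 0.000756 by edgeR's test). Only 248 of the 11909 genes tested, or 2.08%, had a log2 fold change of at least that size in either direction. Within the numbers the log2 difference was -2.52, -3.24, -3.19 and -3.46, smallest for number 1. Leaving out each library in turn gave log2 fold changes from -3.35 to -2.91, and the call was kept in all 8 fits.

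Cdkn2c, which encodes p18, lies on the same chromosome at 109660876 to 109667189 (ENSMUSG00000028551.14, minus strand). It had 10.4, 22.1, 29.4 and 29.0 CPM in PUS10KO libraries 1 to 4, against 7.98, 28.9, 33.5 and 31.9 CPM in control libraries 1 to 4. Number 1 was the lowest library in both genotypes. The log2 fold change was -0.17 with a 95% interval of -1.20 to 0.86 (edgeR adjusted p = 0.857), and with the replicate block -0.11 with an interval of -0.40 to 0.19 (adjusted p = 0.545).

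Cdkn2d, which encodes the INK4 protein p19, lies on chromosome 9 (ENSMUSG00000096472.2, 21288410 to 21291407, minus strand). It had 5.56, 11.8, 14.6 and 13.9 CPM in PUS10KO libraries 1 to 4, against 3.84, 16.4, 17.9 and 14.4 CPM in control libraries 1 to 4. Here too number 1 was lowest, and it was the only number in which the PUS10KO library was the higher of the pair. The log2 fold change was -0.19 with a 95% interval of -1.23 to 0.85 (edgeR adjusted p = 0.836), and with the block -0.11 with an interval of -0.49 to 0.27 (adjusted p = 0.622).

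**Figure D2:**
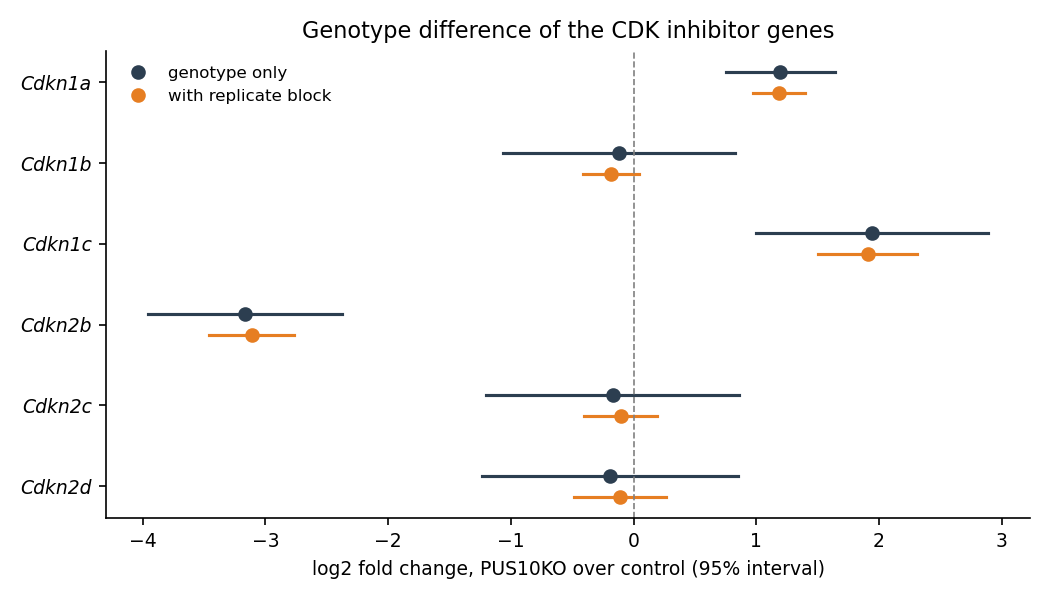
Log2 fold change of PUS10KO over control (x axis) with 95% intervals from edgeR's quasi-likelihood fit for each CDK inhibitor gene, with genotype only (dark) and with the library number as a replicate block (orange). The intervals of Cdkn1a and Cdkn1c lie above 0 and that of Cdkn2b below 0 in both fits, and those of the other genes include 0.

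Genotype held the largest share of the variance for the called inhibitors, and the library number for the uncalled ones. This split comes from the same values as the calls and is no separate result. Genotype held 84.1% of the variance of log2 CPM for Cdkn1a, 71.8% for Cdkn1c and 91.6% for Cdkn2b. The library number held 95.6% for Cdkn1b, 96.1% for Cdkn2c and 93.4% for Cdkn2d. Over all genes tested the medians were 22.1% for genotype and 58.0% for number, as shares of the sum of squares in the layout of 2 genotypes by 4 numbers. The labels do not say what a number shares. Cdkn2c and Cdkn2d had nearly the same profile (Pearson r of log2 CPM = 0.990 over 8 libraries), and Cdkn1b followed Cdkn2c with r = 0.859. Cdkn1a and Cdkn2b, which were called in opposite directions, ran opposite to each other (r = -0.947). Their deviations from the genotype means had r = -0.603. This was not particular to Cdkn2b, since the deviations of Cdkn1a had r = -0.837 with Cdkn1b, -0.747 with Cdkn2c and -0.670 with Cdkn2d. For Cdkn1c and Cdkn2b r was -0.704 over the libraries and 0.700 for the deviations. These points share the libraries and their scaling, and the correlations describe only these 8 libraries.

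**Figure D3:**
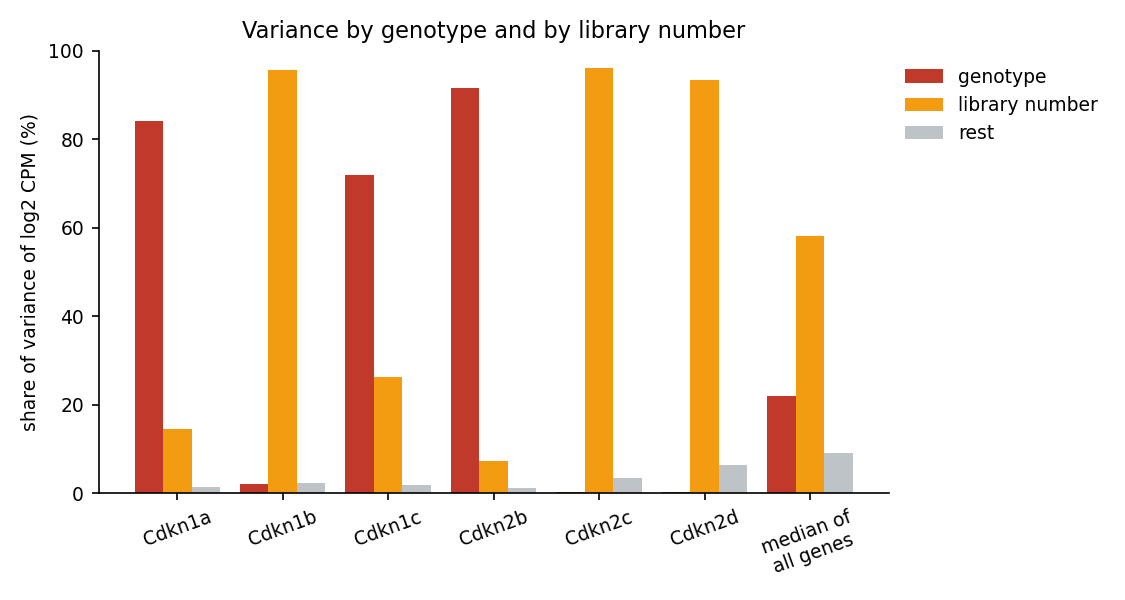
Share of the variance of log2 CPM over the 8 libraries (y axis, %) held by genotype (red), library number (orange) and the rest (grey) for each CDK inhibitor gene, beside the medians of all genes tested. Genotype holds most of it for Cdkn1a, Cdkn1c and Cdkn2b, and the number for Cdkn1b, Cdkn2c and Cdkn2d.

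The genes whose profiles were most like each inhibitor were found among 11617 tested genes by Pearson r of log2 CPM over the 8 libraries. As the highest of so many genes over 8 points, these r values are high by selection. They also hold the differences by genotype and number that many genes share, and show no link between the genes. For Cdkn1a these were Arhgdib (r = 0.988), Grem1, a secreted BMP antagonist (0.986), and Dlk1, an imprinted membrane protein of the Notch ligand family (0.985). Arhgdib had 70.4 ± 11.1 CPM in PUS10KO and 35.03 ± 5.22 CPM in control. For Cdkn2b they were Glo1, the glyoxalase of methylglyoxal removal (0.997), Lgmn, the lysosomal protease legumain (0.997), and Fgd4, a guanine nucleotide exchange factor (0.993). Lgmn had 19.1 ± 4.30 CPM in PUS10KO and 106 ± 32.3 CPM in control. For Cdkn1c they were Macrod1 (0.992), Gstt3, a glutathione transferase (0.981), and the proteasome activator subunit gene Psme1 (0.978). Calm3, a calmodulin gene, was the nearest profile to both Cdkn2c (0.990) and Cdkn2d (0.994). Cdkn2d was also followed by Chek2, a DNA damage checkpoint kinase (0.988), and Cdca3, a cell division gene (0.985), and Cdkn2c by Fancf and Cyp39a1 (each 0.985). For Cdkn1b the nearest profiles were Ermard (0.990), Ccng2, a cyclin G gene (0.990), and Tril (0.988).

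Per kilobase of exon the make-up of the family differed between the genotypes. RPKM here are the CPM divided by the length of the union of annotated exons. In PUS10KO the order was Cdkn1a (32.5 ± 7.03 RPKM), Cdkn1b (17.7 ± 8.99), Cdkn2c (8.45 ± 3.31), Cdkn2d (7.27 ± 2.61), Cdkn2b (6.16 ± 1.65) and Cdkn1c (5.03 ± 2.30). Each gene overlapped with the next in this order. In control the order was Cdkn2b (55.2 ± 23.5 RPKM), Cdkn1b (19.2 ± 7.54), Cdkn1a (14.2 ± 2.67), Cdkn2c (9.52 ± 4.42), Cdkn2d (8.33 ± 4.03) and Cdkn1c (1.30 ± 0.452). There Cdkn2b stood above Cdkn1b and Cdkn2d above Cdkn1c without overlap, and the other neighbours in that order overlapped. Cdkn2b was the first of the 6 in control and the fifth in PUS10KO.

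Cdkn2b made up 5.93% to 8.65% of the summed RPKM of the 6 genes in PUS10KO libraries and 43.0% to 57.4% in control libraries. Cdkn1a made up 28.7% to 61.6% in PUS10KO libraries and 7.83% to 25.8% in control libraries. The 3 CIP/KIP genes together held 72.1% ± 5.69 of the sum in PUS10KO and 33.7% ± 6.73 in control (SD, n = 4 each). The sum itself was 66.5, 68.5, 88.4 and 85.1 RPKM in PUS10KO libraries 1 to 4, against 66.6, 89.3, 135 and 141 RPKM in control libraries 1 to 4. It overlapped between the genotypes at number 1, where the PUS10KO and control sums were nearly equal. These sums describe transcripts and not proteins, and Cdkn2a is not part of them.

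**Figure D4:**
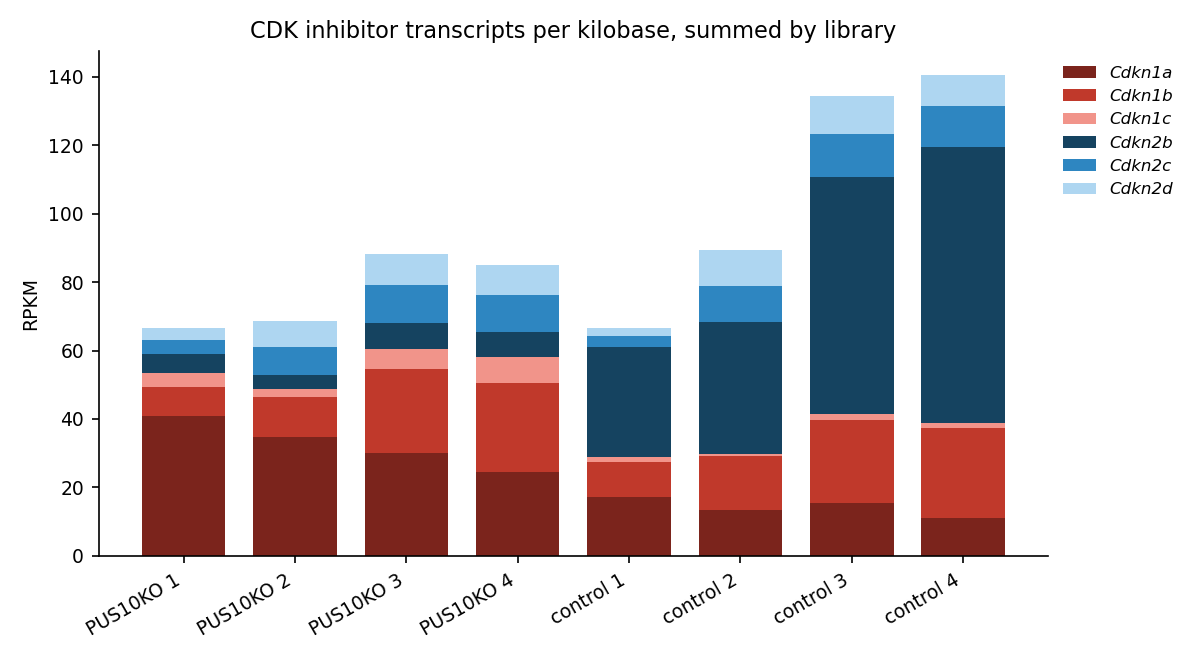
Stacked RPKM (y axis, from 0) of the 6 CDK inhibitor genes in each PUS10KO and control library, with CIP/KIP genes in reds and INK4 genes in blues. Cdkn2b is the largest block in each control library, and Cdkn1a, or in PUS10KO 4 Cdkn1b, is the largest in each PUS10KO library.

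Of 23 tested genes nearest to the inhibitors on the chromosomes 2 rose and 1 fell, a share close to the 13% called over all genes, and the block fit called 2 higher and 5 lower, where 39% of all genes were called. Of the 4 nearest genes with counts around Cdkn2b, Mtap, which encodes methylthioadenosine phosphorylase and lies 125 kb away, rose while Cdkn2b fell. Mtap had 335, 339, 304 and 330.1 CPM in PUS10KO libraries 1 to 4, against 144, 199, 168 and 183 CPM in control libraries 1 to 4 (log2 fold change 0.91, SE 0.13, edgeR adjusted p = 0.00215). Elavl2, an RNA-binding protein gene 1940 kb away, rose too (0.805 ± 0.264 CPM in PUS10KO and 0.0481 ± 0.0677 CPM in control, adjusted p = 0.00798). Klhl9 and Tusc1 had log2 fold changes of -0.05 and -0.27 and did not pass. Chromosome 4 as a whole had a median log2 fold change of 0.028.

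Around Cdkn1c none of the 4 nearest genes passed edgeR's test or the test with the replicate block. Slc22a18, a transporter gene of the same imprinted region 12.7 kb away, had 2.54 ± 1.11 CPM in PUS10KO and 2.55 ± 0.780 CPM in control (adjusted p = 0.99). Nap1l4, Cd81 and Tssc4 had log2 fold changes of 0.13, -0.10 and 0.16. In the wider list of this imprinted neighbourhood 8 of 14 genes were tested, with none called, 0 at an unadjusted p under 0.05, 0 by DESeq2 and 0 by limma voom, and 1 that rose with the block. Beside Cdkn1a, BC004004 fell (log2 fold change -0.50, adjusted p = 0.0239), a call kept only without PUS10KO 4 or control 2 among the fits that left out 1 library (adjusted p up to 0.0796 in the others). Stk38, Srsf3 and Ppil1 did not pass and had log2 fold changes of -0.27, -0.11 and -0.01, though Stk38 fell with the block (adjusted p = 0.0384). None of the tested neighbours of Cdkn1b, Cdkn2c and Cdkn2d was called by the same test. With the replicate block 1 beside each fell, namely Gprc5a beside Cdkn1b (adjusted p = 0.00617), Rnf11 beside Cdkn2c (0.0177) and Atg4d beside Cdkn2d (0.0267).

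The kinases and cyclins that the inhibitors bind were mostly not called. Over all genes tested 13% were called, and 39% in the fit with the replicate block. Of 5 genes of CDK4, CDK6 and the D-type cyclins, the partners that INK4 proteins compete for, none rose and 1 fell, or 1 and 1 in the block fit. That gene was Ccnd2, cyclin D2, with 208, 180.0, 176 and 159 CPM in PUS10KO libraries 1 to 4, against 432, 429, 459 and 309 CPM in control libraries 1 to 4. The groups did not overlap, and the log2 fold change was -1.17 (SE 0.16, edgeR adjusted p = 0.00167). Ccnd1, cyclin D1, had 579.7 ± 203 CPM in PUS10KO and 645 ± 216 CPM in control (adjusted p = 0.789). Of 15 tested genes of CDK1, CDK2, their cyclins and activators, 1 rose and 1 fell (3 and 1 with the block). The 2 genes called without the block belong to the CDK-activating kinase, which phosphorylates CDKs. Ccnh, cyclin H, had 59.9 ± 1.83 CPM in PUS10KO and 41.3 ± 2.74 CPM in control (log2 fold change 0.54, adjusted p = 0.00876). Mnat1, its assembly factor, had 29.4 ± 4.36 CPM in PUS10KO and 56.9 ± 6.85 CPM in control (log2 fold change -0.95, adjusted p = 0.00345).

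Downstream of the inhibitors, among 19 genes of the RB family, E2F and the DREAM complex, none rose and 1 fell, where 13% of all genes were called. With the replicate block 4 rose and 3 fell, where 39% of all genes were called, and by DESeq2 2 fell. E2f6, a repressor of the E2F family, had 23.9 ± 6.11 CPM in PUS10KO and 51.9 ± 21.4 CPM in control (log2 fold change -1.12, adjusted p = 0.0409). Its call was kept only without PUS10KO 1, control 3 or control 4 among the fits that left out 1 library, with adjusted p up to 0.109 in the others. Rbbp4, the most abundant uncalled member, had a log2 fold change of -0.04. Of 17 proliferation genes edgeR's test called 0, with 0 at an unadjusted p under 0.05 and 0 by DESeq2 and by limma voom. The block fit called 2 higher and 1 lower. Top2a, the topoisomerase of dividing cells, had 761 ± 236 CPM in PUS10KO and 685 ± 317 CPM in control (95% interval of the log2 fold change -0.74 to 1.05). Mcm6, a subunit of the replicative helicase, had a log2 fold change of 0.35 and rose with the block (adjusted p = 0.0181). The proliferation genes summed to 3595, 5178, 3773 and 3491 CPM in PUS10KO libraries 1 to 4, against 2337, 5329, 3626 and 3220 CPM in control libraries 1 to 4. Control 1 was the lowest of all 8, as it was for Cdkn2c and Cdkn2d.

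**Figure D5:**
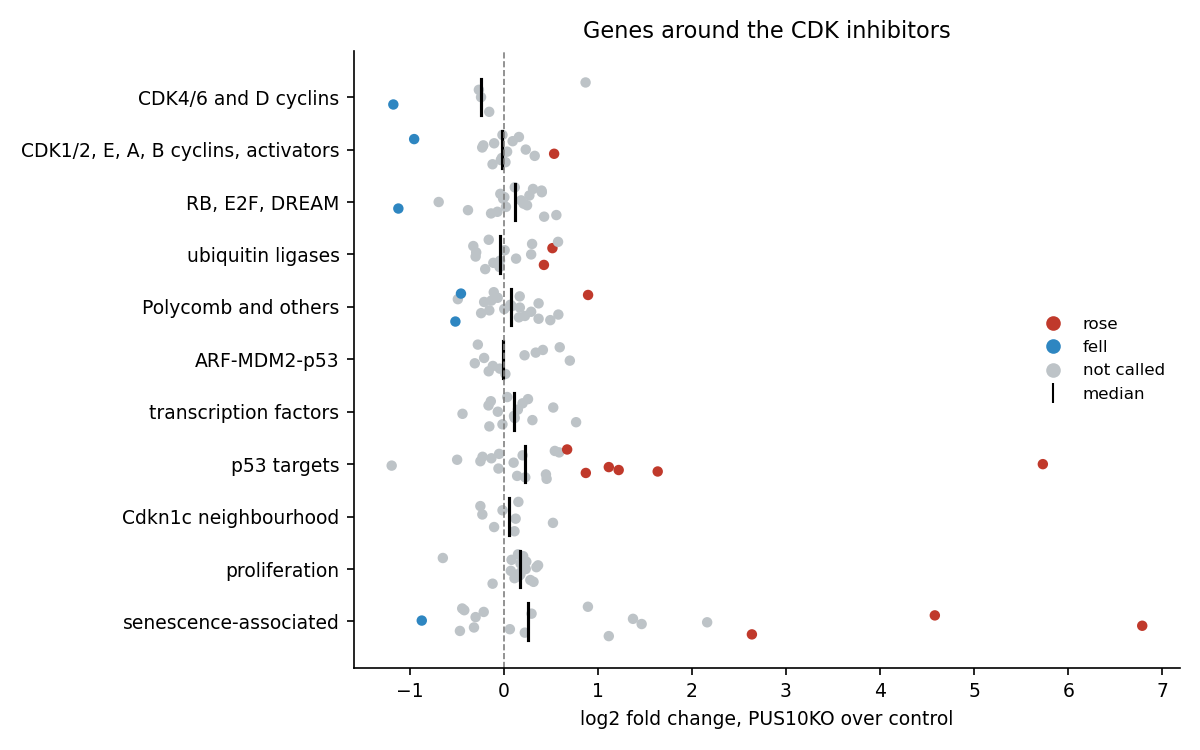
Log2 fold change of PUS10KO over control (x axis) for the tested genes of each list around the CDK inhibitors (rows). Points are genes, red where they rose, blue where they fell and grey where they were not called, and black bars are list medians. Called genes are few in most rows, and 6 of the p53 targets lie to the right as genes that rose.

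Cdkn1a shares its regulator p53 with the genes of a further list. Of 21 tested targets besides Cdkn1a 6 rose, none fell and 15 did not pass, against 5.9% of all genes tested that rose, and the block fit called 10 higher and 2 lower, where 19.1% of all genes rose and 19.9% fell. DESeq2 called 7 higher and 1 lower, and limma voom 6 higher and 0 lower. The list's median log2 fold change was 0.23. Among the 15 not called, values ran from -1.19 (Gadd45a, edgeR adjusted p = 0.0754) to 0.59 (Tnfrsf10b, edgeR adjusted p = 0.065), with Plk3 at -0.49. Perp, a desmosome-associated effector, had 9.03, 17.0, 28.4 and 23.9 CPM in PUS10KO libraries 1 to 4, against 0.973, 0.109, 0.206 and 0.144 CPM in control libraries 1 to 4 (adjusted p = 0.000944). Eda2r, the ectodysplasin A2 receptor, is X-linked and had 95.4 ± 17.1 CPM in PUS10KO and 40.9 ± 6.37 CPM in control (log2 fold change 1.22, adjusted p = 0.00226). Ccng1, cyclin G1, had 1138 ± 167 CPM in PUS10KO and 621 ± 123 CPM in control (log2 fold change 0.87, adjusted p = 0.0128). Fas, the death receptor, differed by 1.12 on the log2 scale (adjusted p = 0.03). Zmat3 and Dcxr, which lie below the first 4 by p, had 0.67 and 1.64 (adjusted p = 0.044 and 0.0489). Of the fits that left out 1 library, Fas was called only without PUS10KO 1, PUS10KO 2 or control 4, Zmat3 only without control 1, and Dcxr only without PUS10KO 1 or control 4. In the other such fits their adjusted p reached 0.0838, 0.105 and 0.123.

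In the ARF-MDM2-p53 axis itself edgeR's test called 0 of 12 genes, with 3 at an unadjusted p under 0.05. DESeq2 called 1 that rose and 1 that fell, limma voom 0, and with the block 3 rose and 2 fell. Npm1, the nucleolar partner of ARF, and Usp7, a deubiquitinase of MDM2 and p53, had log2 fold changes of 0.22 and -0.27, and Usp7 fell with the block (adjusted p = 0.0211). Of 22 tested Polycomb and other regulators of the Cdkn2a and Cdkn2b locus 1 rose and 2 fell, a share close to the 13% called over all genes. With the block 6 rose and 3 fell, a share close to the 39% called over all genes. Bmi1, a Polycomb subunit known to repress that locus, had 134 ± 9.75 CPM in PUS10KO and 191 ± 21.2 CPM in control (log2 fold change -0.51, adjusted p = 0.0236). Tbx3, a repressor of the T-box family, had 15.97 ± 3.82 CPM in PUS10KO and 8.57 ± 1.59 CPM in control (log2 fold change 0.90, adjusted p = 0.0268). For Twist1 the log2 value was -0.45 (adjusted p = 0.043). Of the fits that left out 1 library, Bmi1 was called only without PUS10KO 2, control 1 or control 2, Tbx3 only without PUS10KO 3, control 1 or control 2, and Twist1 only without PUS10KO 4 or control 1. In the others their adjusted p reached 0.0727, 0.0689 and 0.126.

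Of 15 other transcription factors known to act on inhibitor genes edgeR's test called 0, with 2 at an unadjusted p under 0.05. DESeq2 called 1 that rose, limma voom 0, and with the block 4 rose and none fell. Klf6 and Sp1, the most abundant, had log2 fold changes of -0.44 and 0.26, and Sp1 rose with the block (adjusted p = 0.0342). Of 15 ubiquitin ligases and cofactors that turn over the inhibitor proteins 2 rose and none fell, a share close to the 13% called over all genes. The block fit called 5 higher and 1 lower, where 39% of all genes were called, and DESeq2 3 higher and 1 lower. The 2 that rose without the block were Cops5 and Rchy1, a ubiquitin ligase (log2 fold change 0.52, edgeR adjusted p = 0.0459). Cops5 is the catalytic subunit of the COP9 signalosome known to promote p27 export. It had 172 ± 5.86 CPM in PUS10KO and 128 ± 9.53 CPM in control (edgeR adjusted p = 0.0262). Cops5 was called only without control 1 or control 2, and Rchy1 in none of the fits that left out 1 library, with adjusted p up to 0.0695 and 0.128.

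Genes often measured in senescent cells moved in both directions. Of 18 tested senescence-associated genes 3 rose, 1 fell and 14 did not pass, where 5.9% of all genes tested rose and 7.11% fell. With the block 9 rose and 4 fell, against 19.1% and 19.9% of all genes. DESeq2 called 6 higher and 1 lower, and limma voom 4 higher and 1 lower. Icam1, an adhesion molecule, had 43.6 ± 16.01 CPM in PUS10KO and 0.384 ± 0.291 CPM in control (adjusted p = 9.06e-05), and Cxcl1, a chemokine, had 75.2 ± 30.01 CPM in PUS10KO and 12.1 ± 4.07 CPM in control (adjusted p = 0.00205). Mmp3, a matrix protease, had 87 counts over the PUS10KO libraries and 3 over the control libraries. Igfbp7, an insulin-like growth factor binding protein, had 226 ± 21.8 CPM in PUS10KO and 413 ± 16.5 CPM in control (log2 fold change -0.87, adjusted p = 0.00153). The list's sum was 8600, 3823, 1795 and 1662 CPM in PUS10KO libraries 1 to 4 and 8355, 4158, 1424 and 1394 CPM in control libraries 1 to 4. Such a sum mostly reflects its most abundant genes, and the called genes Icam1, Cxcl1 and Igfbp7 did not share its order. Icam1 and Cxcl1 were lowest in number 1 in both genotypes (25.9 and 43.7 CPM in PUS10KO 1, 0.195 and 6.18 CPM in control 1). Igfbp7 was highest in number 4 in both genotypes, and Mmp3, at few counts, in number 1. Cdkn1a had its highest value in number 1 in both genotypes, whereas Cdkn2b had its 2 highest control values in numbers 3 and 4. A link between Cdkn1a and this list was not tested.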

How the data were processed

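RNA of 8 MEF libraries, 4 PUS10KO and 4 control by their titles, was sequenced paired-end from a stranded total RNA kit, per the labels. The authors deposited whole-number counts per gene without normalization, and a second table whose range (5.13 to 18.1) fits log2 values. STAR 2.7.8a, DESeq2 and mm10 are named in the submitters' processing notes. The read counter, strand setting, annotation and gene filter are not stated there. In the log2 table the values of the 2 libraries of a number have the same sum for all 4 numbers in each of 12211 genes, so differences between numbers had been removed.

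The counts were tested with edgeR 4.0.16 in R 4.3.3 (filterByExpr, TMM, robust quasi-likelihood fit, Benjamini-Hochberg over 11909 genes, threshold 0.05). DESeq2 1.42.0 and limma 3.58.1 served as alternatives, and the test was run on simulated data. The simulated libraries were independent and had no effect of the library number, so that run does not cover the pairing seen here. Standard errors and 95% intervals were derived from the F statistic. Depth ran from 17561114 to 24563499 counts per library, and the lowest inhibitor value rested on 25 counts, of Cdkn1c in control 2. Gene positions and exon lengths came from GENCODE M21 (GRCm38), matched by symbol for 12048 genes and by synonym for 148. Libraries of 1 genotype differed by more than sampling noise in every pair (chi-square over degrees of freedom at least 17.9). The ratio was lowest between numbers 3 and 4 (17.9 in PUS10KO and 24.2 in control), and every other pair had at least 65.6.

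Both genotypes carry the numbers 1 to 4 in the labels. Across genes, the deviations of a PUS10KO library from its genotype mean correlated with those of the control library of its number (Pearson r = 0.681, 0.722, 0.633 and 0.687), so a fit with the number as a block is given beside the main fit, which has no block and ignores the pairing. Each matched r was the highest of its PUS10KO library, but numbers 3 and 4 were also alike. PUS10KO 3 had r = 0.582 with control 4, and PUS10KO 4 had r = 0.503 with control 3. The pairing comes from the counts and not from the labels, and it separates number 3 from number 4 less clearly. The inhibitors and the 15 gene lists were chosen with earlier results of these data known. Named were all inhibitors, up to 4 called genes of each list by lowest p, filled to 2 with the most abundant, the 3 profiles nearest to each inhibitor, up to 2 neighbours on each side, Pus10 and the Y-linked genes. Zmat3 and Dcxr were added after their values were seen.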

Additional observations from a re-analysis of the deposited data

Results flagged for a closer look

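In groups of 4 libraries, 1 library stood far from the other 3 in the following cases, where chance gives about 1 in 20 groups; 172 groups were examined, 12 of them of CDK inhibitor genes, and none of those 12 was among the 10 found. The 10 found among 172 are close to the share that chance gives. Control 1 stood apart for several genes whose profiles follow the inhibitors or that belong to the lists. Calm3, Chek2, Fancf and Cdca3 were named because their profiles were like those of Cdkn2c or Cdkn2d. Since those inhibitors were lowest in number 1, low values of these genes there were largely fixed by that choice. Chek2 had 6.08 CPM in control 1 and 25.7 to 26.2 CPM in the other control libraries, Calm3 354 CPM against 502 to 529.7 CPM, and Fancf 8.08 CPM against 16.3 to 17.1 CPM. Perp had 0.973 CPM in control 1 and 0.109 to 0.206 CPM in the others, and Krt19 221 CPM in control 1 and 73.0 to 96.3 CPM in the others. Cdca3 had 26.9 CPM in PUS10KO 1 and 104 to 116 CPM in the other PUS10KO libraries, and Srsf3 had 329 CPM in PUS10KO 2 and 261 to 269.6 CPM in the others. Lyz2 had 4.50 CPM in control 4 and 2.37 to 2.46 CPM in the others. Uty and Kdm5d had 0.0547 and 0.109 CPM in control 2, from 1 and 2 counts, and 0 in the other control libraries. The part of depth, cell composition or culture in these differences was not tested.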

How the results depend on the processing

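Cdkn1a and Cdkn2b kept their direction and their call under every alternative run. Cdkn1c lost its call in 3 of them, chosen after the data were seen, which left out both libraries of number 1, 3 or 4 (log2 fold change 2.04, 2.00 and 1.73, with 3 libraries a genotype). Cdkn1b, Cdkn2c and Cdkn2d were called under none, and their log2 fold changes had the other sign in 4, 1 and 2 settings. In the authors' log2 table, whose scale is not stated, Cdkn1c differed by 1.07.

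Of all genes tested 703 rose and 847 fell. With the replicate block 2273 rose and 2368 fell, and the block changed no call of an inhibitor. DESeq2's test called 1146 higher and 1287 lower, and limma called 3916 higher and 3624 lower on the authors' log2 values (2383 and 2386 with the replicate block). Differences between numbers had already been removed from those values. The limma fit without the block does not allow for this, so its p-values are too small. Leaving out 1 library gave 492 to 638 that rose and 520 (without PUS10KO 3) to 728 that fell, with 560 that fell without PUS10KO 2. Without both libraries of number 2, 3 or 4, 426, 293 and 450 rose and 421, 303 and 465 fell. Total counts in place of TMM, added after the data were seen, moved the median log2 fold change of all genes to 0.116 and gave 867 that rose and 622 that fell. Of the 80 other named genes 40 were called, and 24 of these kept their call in every fit that left out 1 library. At 25 to 69 counts per control library, Cdkn1c is the inhibitor whose value depth limits most.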
